A study of Enchytraeus crypticus with 9 samples.

Results

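Some transcripts of *Enchytraeus crypticus*, a small white soil worm of the annelids that is used in ecotoxicity tests, differed from Control at the higher of a pair of UV doses while their mean at the lower dose stayed close to Control. On arrays with 43750 gene probes, 76 probes had this pattern, of which 57 rose and 19 fell at UV Dose 2. They were taken from the 27935 gene probes whose signal was positive and significantly above background on all 9 arrays, so the members make up 0.272% of those probes. A level is given throughout as the log2 of a probe's processed signal minus the median of that quantity over the 27935 probes of the array, so that 0 is the level of the median probe and 1 unit is a 2-fold difference. A member had its 3 UV Dose 2 arrays all above, or all below, the other 6 arrays, a mean UV Dose 2 minus Control of at least 1 in size, and a mean UV Dose 1 minus Control under 0.5 in size. The members were thus chosen by their measured levels in these same arrays, so their levels and changes are a description, with no test.

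All samples were RNA of whole bodies of adult worms with a well developed clitellum, the glandular ring of mature worms, kept for 5 days in reconstituted water, with 40 worms pooled for each array and 3 arrays per group. The UV total was 8100 J/m² for UV Dose 2 and 7500 J/m² for UV Dose 1, while Control worms were kept in ordinary laboratory light. The source text of the UV Dose 2 samples names the lower dose next to 8100 J/m², and the group was taken from their titles and treatments. In whole-body RNA of pooled worms, fewer cells of a type and less RNA per cell cannot be told apart. The 3 pools of a group are described as biological replicates, but not whether they came from separate cultures, so p values measure only the spread between these pools.

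UV light harms cells mainly through lesions that join neighbouring pyrimidine bases of DNA and through reactive oxygen species. Animals meet it with nucleotide excision repair that cuts such lesions out and with antioxidant enzymes and chaperones. Some also have photolyases that reverse the lesions. Enchytraeid worms have a thin, almost unpigmented body wall through which they also take up oxygen, and they live in soil, out of direct light. The files used here name each probe by a contig number or by a sequence ID that begins with GYUW2K and pair neither with a gene, so the members are described by their levels and not by their function.

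Across the 9 arrays, between 29844 and 39849 gene probes had a positive and significant signal, the fewest on Control replicate 2 and the most on Control replicate 3. No gene probe was saturated. Spots without a target varied most on Control replicates 2 and 1, with an SD of 20.97 and 11.12, where the remaining 7 arrays had SDs from 1.158 to 4.649. The arrays lay on 4 slides, and the 3 UV Dose 2 arrays shared slide 4 with UV Dose 1 replicate 1. UV Dose 1 replicates 2 and 3 shared slide 2 with Control replicate 2, while Control replicates 1 and 3 lay on slides 1 and 3. No Control array was on the slide of the UV Dose 2 arrays, so a difference between UV Dose 2 and Control cannot be told apart from a difference between slides, other than through UV Dose 1.

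The first step of the choice asked whether the UV Dose 2 arrays lay fully apart from the rest. They lay above the other 6 arrays in 1007 probes, 3.6% of the 27935, and below them in 153, or 0.548%, together 4.15%. Of these, 222 rises and 44 falls also differed from Control by at least 1, and in 165 of the rises and 25 of the falls the mean UV Dose 1 change was 0.5 or more in size. In 164 of those 165 rises and 19 of those 25 falls, UV Dose 1 moved in the same direction as UV Dose 2. Both changes share the Control arrays, so these counts describe the steps of the choice only. The same rule with the doses exchanged found 52 rises and 23 falls at UV Dose 1.

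**Figure D1:**
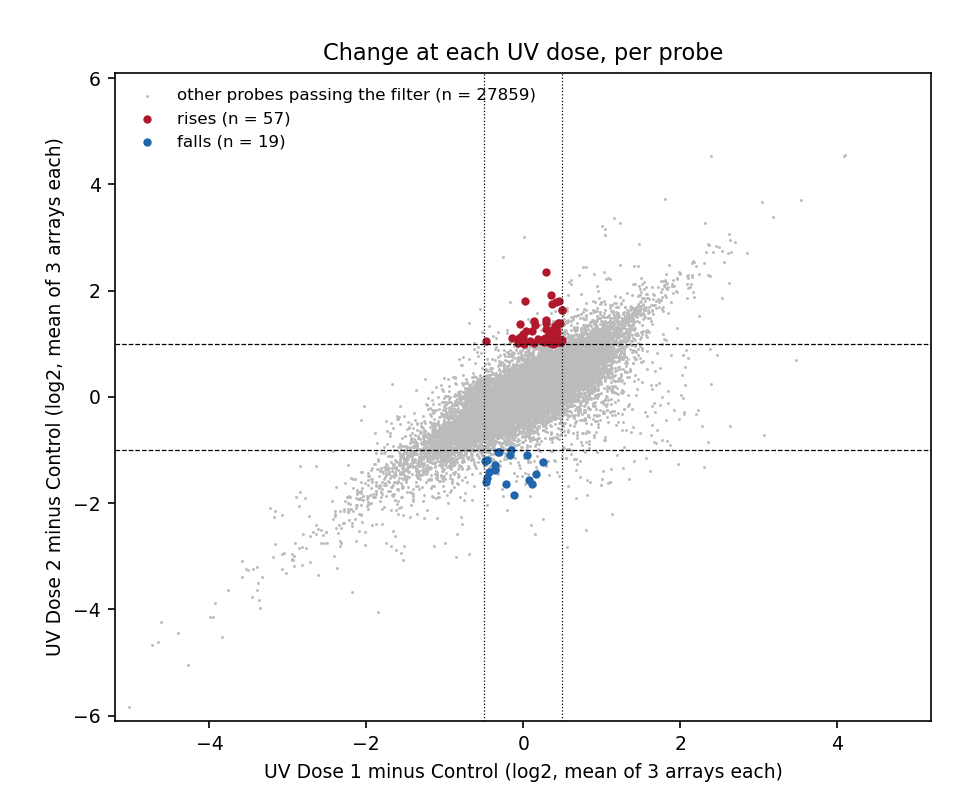
Mean UV Dose 2 minus Control (vertical axis, log2) against mean UV Dose 1 minus Control (horizontal axis, log2) for each probe that passed the filter, with the 57 rises in red, the 19 falls in blue and the other probes in grey. Dashed lines mark a change of 1 at UV Dose 2 and dotted lines a change of 0.5 at UV Dose 1. The members lie between the dotted lines and beyond a dashed line. Grey points that share that space are probes whose UV Dose 2 arrays did not all lie on 1 side of the other 6.

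Among the 57 rises, the mean UV Dose 2 minus Control was between 1.00 and 2.35, with a median of 1.18. The mean UV Dose 1 minus Control was between -0.47 and 0.49, with a median of 0.34, and it was above 0 in 46 of the 57 (80.7%), against 57.6% of all 27935 probes. Both changes are taken from the same Control arrays, so nothing is read from that share. Taken array by array against the Control mean, the median rise was 1.14, 1.21 and 1.38 on UV Dose 2 replicates 1, 2 and 3, and 0.37, 0.28 and 0.27 on the UV Dose 1 replicates. The median over all 27935 probes of the mean change was 0.14 at UV Dose 2 and 0.09 at UV Dose 1.

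The largest rise was in GYUW2K402GPPPY, with levels of 3.88, 4.02 and 3.53 on the UV Dose 2 arrays, 1.02, 2.25 and 1.99 on the UV Dose 1 arrays, and 1.65, 1.61 and 1.13 on the Control arrays. The UV Dose 2 arrays lay at least 1.28 above every other array, the widest gap of any rise, while UV Dose 1 and Control overlapped. Its mean was 3.81 ± 0.26 at UV Dose 2, 1.75 ± 0.65 at UV Dose 1 and 1.46 ± 0.29 in Control (SD, n = 3 each), which is 5.09-fold higher at UV Dose 2 than in Control. The probe was well above background on all 9 arrays. It is printed in row 522 and is the only rise in the last 25 rows of the array, a band described with the falls. On slide 2, its UV Dose 1 replicates 2 and 3 averaged 1.10 above UV Dose 1 replicate 1. Its Control replicate 2, also on slide 2, lay 0.22 above the mean of the other Control arrays. The part of the printed position in this rise was not tested.

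contig24076 had levels of -1.60, -0.52 and -0.52 on the UV Dose 2 arrays, -2.39, -2.41 and -2.53 on the UV Dose 1 arrays, and -2.79, -3.39 and -2.23 on the Control arrays. It is a dim probe, well above background on 1 of the 3 Control arrays, and its mean was 3.79-fold higher at UV Dose 2 than in Control. contig06181 had 0.61, 0.07 and 0.15 on the UV Dose 2 arrays, -0.60, -1.19 and -1.42 on the UV Dose 1 arrays, and -1.51, -1.98 and -1.09 on the Control arrays, 3.49-fold higher at UV Dose 2 than in Control. In contig06181, UV Dose 1 replicate 1 stood above the 5 other arrays outside UV Dose 2, and UV Dose 1 took a place between UV Dose 2 and Control on average.

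contig11596 was the rise with the least sign of movement at UV Dose 1 among the 8 largest. Its levels were 2.19, 1.92 and 1.92 on the UV Dose 2 arrays, 0.05, 0.28 and 0.39 on the UV Dose 1 arrays, and 0.99, -0.18 and -0.16 on the Control arrays. The mean UV Dose 1 minus Control was 0.02, and the mean UV Dose 2 minus Control was 1.80, or 3.47-fold. Control replicate 1 was the nearest of the other arrays to UV Dose 2, and a gap of 0.93 remained.

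GYUW2K401DRXNU had levels of 1.18, 1.27 and 1.48 on the UV Dose 2 arrays, 0.35, -0.90 and 0.37 on the UV Dose 1 arrays, and -0.84, -0.82 and 0.20 on the Control arrays. contig03299 had 1.54, 1.73 and 1.80 on the UV Dose 2 arrays, 0.84, -0.03 and 0.81 on the UV Dose 1 arrays, and -0.31, -0.12 and 0.57 on the Control arrays. In both, the UV Dose 2 arrays agreed closely (SD 0.15 and 0.13) while UV Dose 1 replicate 2 was the low array of its group and Control replicate 3 the high array of its own. The mean rises were 3.47-fold and 3.13-fold over Control.

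GYUW2K401DW3PZ was the probe whose 9 levels followed those of GYUW2K402GPPPY most closely (Pearson r 0.99 over 9 arrays), with -0.47, -0.38 and -0.64 on the UV Dose 2 arrays, -2.48, -1.30 and -1.85 on the UV Dose 1 arrays, and -1.98, -2.22 and -2.52 on the Control arrays. Its mean was 3.35-fold higher at UV Dose 2 than in Control. The next 2 probes in likeness were not members: GYUW2K402IO0OU (r 0.98) differed from Control by only 0.51 at UV Dose 2, and contig09992 (r 0.97) by 3.16 at UV Dose 2 and 1.04 at UV Dose 1. The shape across arrays was thus shared with probes that the size limits of the rule left out.

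The brightest rises were contig09862, contig08586 and contig17656, whose mean processed signals over the 9 arrays were 7120, 3840 and 2500. contig09862 had levels of 7.65, 7.86 and 7.85 on the UV Dose 2 arrays, 6.89, 6.93 and 6.96 on the UV Dose 1 arrays, and 6.96, 6.26 and 6.59 on the Control arrays, 2.28-fold higher at UV Dose 2 than in Control. The 3 UV Dose 1 arrays agreed within an SD of 0.03, and Control replicate 1 was level with them. contig17656 had 6.28, 6.39 and 6.39 on the UV Dose 2 arrays, 5.36, 5.35 and 5.54 on the UV Dose 1 arrays, and 5.21, 4.78 and 5.05 on the Control arrays, 2.53-fold higher at UV Dose 2 than in Control, with the groups in the order of dose and no overlap. contig08586 spread more within UV Dose 2, with 6.52, 7.15 and 7.74, against 6.12, 5.77 and 6.09 on the UV Dose 1 arrays and 5.11, 5.80 and 5.62 on the Control arrays, 3.09-fold higher at UV Dose 2 than in Control.

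**Figure D2:**
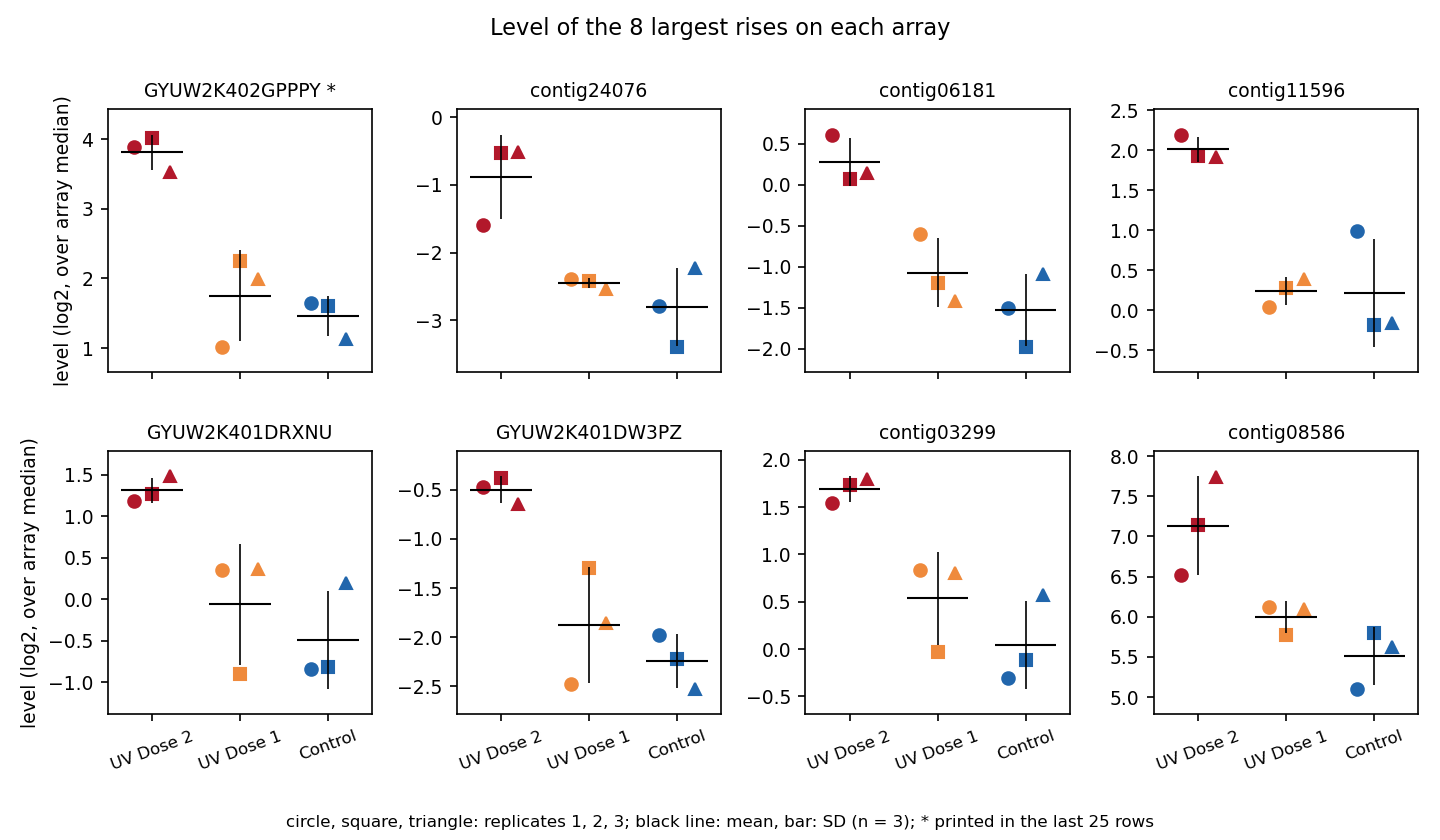
Level (log2, relative to the array median) of the 8 largest rises on each array, with UV Dose 2 in red, UV Dose 1 in orange and Control in blue; symbols give the replicate number, the horizontal line the mean and the bar the SD (n = 3). The UV Dose 2 points lie above all others in each panel, by 1.28 in GYUW2K402GPPPY and by 0.39 in contig08586. The asterisk marks GYUW2K402GPPPY, which is printed in the last 25 rows of the array.

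After GYUW2K402GPPPY, the widest gaps between UV Dose 2 and the other 6 arrays were 0.99 in contig03471, 0.93 in contig11596 and 0.87 in GYUW2K401AWM6X. contig03471 had levels of 1.77, 1.78 and 1.83 on the UV Dose 2 arrays, 0.62, 0.35 and 0.56 on the UV Dose 1 arrays, and 0.78, -0.14 and 0.47 on the Control arrays, 2.68-fold higher at UV Dose 2 than in Control. GYUW2K401AWM6X had 2.13, 2.25 and 2.47 on the UV Dose 2 arrays, 1.03, 1.26 and 1.09 on the UV Dose 1 arrays, and 0.75, 1.00 and 0.77 on the Control arrays, 2.72-fold higher at UV Dose 2 than in Control. In GYUW2K401AWM6X every group was tight, with an SD of at most 0.17. Over all 57 rises the gap was between 0.015 and 1.28, with a median of 0.37, and it passed 0.5 in 20.

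Rises differed in how evenly the 3 UV Dose 2 arrays carried them. The SD over the UV Dose 2 arrays had a median of 0.27 in the rises, against 0.25 over all probes, and ran from 0.03 in contig24712 to 1.25 in contig18380. contig18380, singled out after its values were seen, had 1.08, -1.07 and -1.10 on the UV Dose 2 arrays, -1.28, -1.40 and -1.99 on the UV Dose 1 arrays, and -1.27, -1.59 and -1.79 on the Control arrays, so its mean rests on UV Dose 2 replicate 1. contig08049, singled out in the same way, had -0.98, 0.40 and -1.31 on the UV Dose 2 arrays, -1.82, -1.79 and -1.51 on the UV Dose 1 arrays, and -1.61, -1.82 and -1.52 on the Control arrays, with UV Dose 2 replicate 2 alone far from the rest.

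Some rises moved together from array to array. The closest were GYUW2K402JXDZX and GYUW2K401BCF9A, which differed by at most 0.18 on any array (Pearson r 0.99 over 9 arrays), and GYUW2K401EZ7HZ differed from GYUW2K402JXDZX by at most 0.34. GYUW2K402JXDZX had levels of 3.20, 3.56 and 3.77 on the UV Dose 2 arrays, 2.71, 2.71 and 2.41 on the UV Dose 1 arrays, and 1.86, 2.37 and 2.56 on the Control arrays. GYUW2K401DJEUX and GYUW2K401AQGD4 also kept a nearly constant distance, within 0.14 of its mean on every array. These pairs were singled out after their values were seen, the arrays of a pair share their RNA, and members were chosen for a common pattern, so such likeness is a description. Whether the probes of a pair lie on the same transcript was not tested.

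The 57 rises spanned the whole range of levels, with means over the 9 arrays between -3.07 and 7.11 and a median of -0.08, against -0.05 over all probes. The signal was well above background on all 9 arrays in 41 of the 57 (71.9%), against 70.5% of all probes, and none of the 57 was below that mark on every Control array. In 4 of the 57 (7.02%) the 3 UV Dose 2 arrays lay above 0 and the other 6 below 0, against 15 of all 27935 probes (0.0537%). The rule asked for separated arrays, so nothing is read from that share. By ID, 32 of the 57 were contigs (56.1%), against 50.5% of all probes.

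Among the 19 falls, the mean UV Dose 2 minus Control was between -1.84 and -1.001, with a median of -1.36. The mean UV Dose 1 minus Control was between -0.49 and 0.25, with a median of -0.31, and it was above 0 in 5 of the 19. The falls were dim: their median level over the 9 arrays was -2.12, and 14 of the 19 (73.7%) lay below the array median on every array, against 39.8% of all probes. On all 9 arrays, 7 falls (36.8%) were well above background, against 70.5% of all probes. In 8 of the 19 (42.1%) no UV Dose 2 array had a signal well above background, so that their level there is only a bound. The share over all probes was 2.7%, but falls were chosen for low UV Dose 2 levels, so nothing is read from the difference. Where a fold is given for these 8 falls, it is the ratio of the Control mean to a limit on the UV Dose 2 arrays. That limit is the lowest signal that was well above background there, or the probe's own level where that was higher. The fold is a minimum only where all 3 Control arrays were well above background, as in contig22768. Elsewhere some Control levels are only bounds as well, so the value is called a bounded ratio and is no minimum.

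The printed position on the array comes first, since it touches 5 of the 8 falls with the largest measured mean difference, an order that rests in part on levels that are only bounds. Of the 19 falls, 9 (47.4%) were printed in the last 25 of the array's 532 rows, against 4.4% of all 27935 probes. Of the 57 rises, 1 lay there, the largest rise GYUW2K402GPPPY. The size of this band was chosen after the positions were seen. Over all 438 dim probes of the band, with a mean level under -1, the median deviation from the probe's own mean over the 9 arrays was -0.29, -0.50 and -0.49 on the UV Dose 2 arrays, -0.10, 0.77 and 0.50 on the UV Dose 1 arrays, and -0.27, 1.05 and -0.50 on the Control arrays. The 3 positive values are those of the arrays of slide 2, UV Dose 1 replicates 2 and 3 and Control replicate 2. In the 9770 dim probes of the other rows, the medians on the arrays of slide 2 were -0.19 and 0.10 on UV Dose 1 replicates 2 and 3 and -0.43 on Control replicate 2, so UV Dose 1 replicate 3 was positive in both parts of the array.

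**Figure D3:**
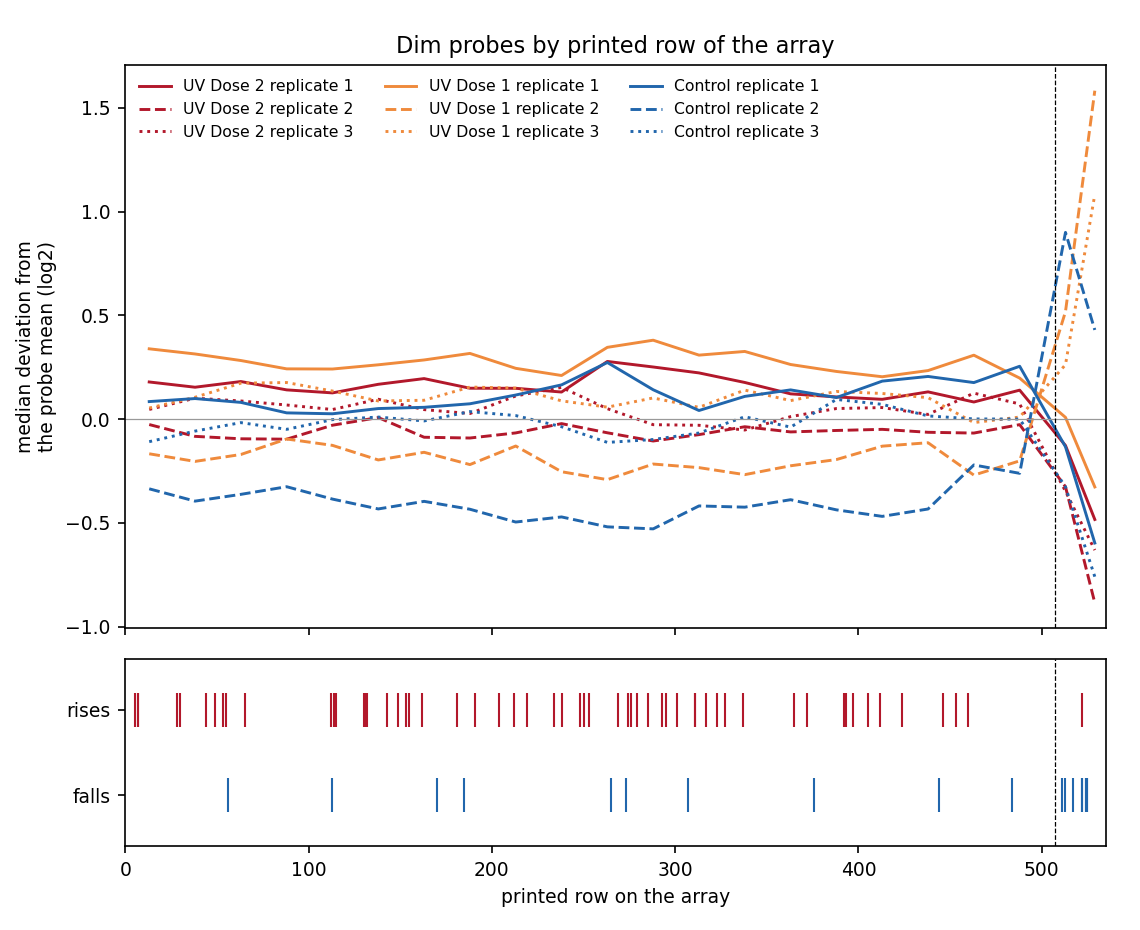
Median deviation from the probe's mean over 9 arrays (log2) of probes with a mean level under -1, in bands of 25 printed rows, for each array (top), and the printed rows of the 57 rises and 19 falls (bottom); colours give the group, line styles the replicate, and the dashed vertical line the start of the last 25 rows. In the last rows the 3 arrays of slide 2 turn upward and the other 6 downward, and 9 of the 19 falls lie there.

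In the 9 falls of these rows, Control replicate 2 lay above the mean of the other Control arrays by a median of 1.90, and it was the highest of the 6 arrays outside UV Dose 2 in 8 of the 9. It was the highest in 207 of the 438 dim probes of the band, in 4 of the 10 falls of the other rows and in 10.8% of all probes. With Control replicates 1 and 3 alone as the baseline, the median UV Dose 2 minus Control of the 9 falls was -0.83 in place of -1.44, and the difference was at least 1 in size in 2 of the 9. In the 10 falls of the other rows the median was -1.26 with all Control arrays and -1.26 without Control replicate 2, and 8 of the 10 stayed at 1 or more in size. The part of the printed position in the falls was not tested further.

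GYUW2K402GA8FW, first by the measured mean difference, had levels of -4.51, -3.99 and -3.68 on the UV Dose 2 arrays, -3.46, -1.42 and -2.13 on the UV Dose 1 arrays, and -2.59, -0.85 and -3.21 on the Control arrays. It was well above background on no UV Dose 2 array and on 2 of the 3 Control arrays, with a bounded ratio of Control to UV Dose 2 of 1.76. GYUW2K402JSALK had -4.10, -3.43 and -3.34 on the UV Dose 2 arrays, -2.77, -1.10 and -1.75 on the UV Dose 1 arrays, and -2.27, -0.47 and -3.21 on the Control arrays. It too was well above background on 2 of the 3 Control arrays, and its bounded ratio was 2.06. In both, UV Dose 1 replicate 2 and Control replicate 2 were the high arrays, and UV Dose 2 lay below the lowest other array by 0.23 and 0.12. Their 9 levels followed each other with a Pearson r of 0.99, the highest of any probe with GYUW2K402GA8FW, and both are printed in the last 25 rows. The next 2 in likeness, contig15107 and contig02529 (r 0.96 each), were not members, with a mean UV Dose 2 minus Control of -1.74 and -1.64.

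contig13028 and GYUW2K402J1729, also in the last rows, had the same high arrays in a sharper form. contig13028 had -2.01, -2.09 and -2.06 on the UV Dose 2 arrays, -1.86, 0.66 and -0.71 on the UV Dose 1 arrays, and -1.58, 1.52 and -1.20 on the Control arrays. GYUW2K402J1729 had -2.83, -2.30 and -2.67 on the UV Dose 2 arrays, -2.21, 0.66 and -1.32 on the UV Dose 1 arrays, and -2.28, 1.48 and -2.29 on the Control arrays. In GYUW2K402J1729 the gap to the nearest other array was 0.01, and Control replicates 1 and 3 were nearly level with UV Dose 2 replicate 2. The Control SD was 1.69 in contig13028 and 2.17 in GYUW2K402J1729 (n = 3), larger than the mean differences of -1.64 and -1.57.

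contig22768, printed in the last rows as well, was the member whose detection separated most fully, well above background on none of the UV Dose 2 arrays and on all 6 others. Detection was not judged at the same level on every array. The lowest log2 signal well above background was 2.29 on Control replicate 3 and 2.61, 2.88 and 2.17 on the UV Dose 2 arrays. Its levels were -3.06, -3.10 and -3.53 on the UV Dose 2 arrays, -2.30, -1.61 and -0.98 on the UV Dose 1 arrays, and -1.78, -0.67 and -2.91 on the Control arrays. It was at least 2.37-fold lower at UV Dose 2 than the mean of all 3 Control arrays. That mean includes Control replicate 2, the high Control array, so the bound does not hold for Control replicates 1 and 3 alone. Control replicate 3 was close to the UV Dose 2 arrays, with a gap of 0.16.

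Outside the last rows, contig14306 was the largest fall that was well above background on all 9 arrays. It had levels of -1.57, -1.74 and -1.55 on the UV Dose 2 arrays, -0.71, 0.08 and -1.03 on the UV Dose 1 arrays, and -0.33, -0.19 and 0.24 on the Control arrays. UV Dose 2 lay below the rest by a gap of 0.51, while UV Dose 1 replicate 2 lay within the Control arrays and the other two UV Dose 1 arrays below them. Its mean was -1.62 ± 0.10 at UV Dose 2, -0.55 ± 0.57 at UV Dose 1 and -0.09 ± 0.30 in Control (SD, n = 3 each), 2.89-fold lower at UV Dose 2 than in Control.

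contig11451 had the widest gap of the falls, 0.60, with -1.92, -2.07 and -1.92 on the UV Dose 2 arrays, -1.15, -1.32 and -1.30 on the UV Dose 1 arrays, and -0.60, -1.04 and -0.67 on the Control arrays, 2.30-fold lower at UV Dose 2 than in Control. Its 3 groups stood in the order of dose with no overlap, and its mean UV Dose 1 minus Control of -0.49 was the nearest to the limit among the falls. contig11828 had -2.18, -1.67 and -1.56 on the UV Dose 2 arrays, -1.10, -0.57 and -0.995 on the UV Dose 1 arrays, and -0.50, -0.33 and -0.74 on the Control arrays, 2.43-fold lower at UV Dose 2 than in Control. Its gap was 0.46, and UV Dose 1 and Control overlapped.

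GYUW2K402GK8FK and GYUW2K401ERXAU were dimmer. GYUW2K402GK8FK had -4.07, -3.93 and -4.69 on the UV Dose 2 arrays, -2.32, -3.61 and -3.34 on the UV Dose 1 arrays, and -2.32, -2.66 and -2.88 on the Control arrays. Its bounded ratio of Control to UV Dose 2 was 1.33, with 2 of the 3 Control arrays well above background. GYUW2K401ERXAU had -4.42, -4.02 and -4.16 on the UV Dose 2 arrays, -3.22, -2.78 and -3.67 on the UV Dose 1 arrays, and -2.87, -2.82 and -2.66 on the Control arrays, with a bounded ratio of 1.19. The Control SD was 0.28 and 0.11 in these probes, and in GYUW2K402GK8FK UV Dose 1 replicate 1 was level with Control replicate 1. GYUW2K401ERXAU was well above background on 1 Control array and on none of the other 8.

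The brightest falls were GYUW2K401CJEZY and GYUW2K402I7KGC, both in the last rows, followed by contig14306. GYUW2K401CJEZY had -0.82, -1.16 and -1.12 on the UV Dose 2 arrays, -0.81, 0.75 and -0.28 on the UV Dose 1 arrays, and -0.78, 1.33 and -0.36 on the Control arrays. UV Dose 2 replicate 1, UV Dose 1 replicate 1 and Control replicate 1 had nearly the same level, and the gap was 0.02. GYUW2K402I7KGC had -1.15, -1.55 and -0.97 on the UV Dose 2 arrays, -0.44, -0.87 and 0.18 on the UV Dose 1 arrays, and -0.15, 0.17 and -0.70 on the Control arrays, 2-fold lower at UV Dose 2 than in Control.

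**Figure D4:**
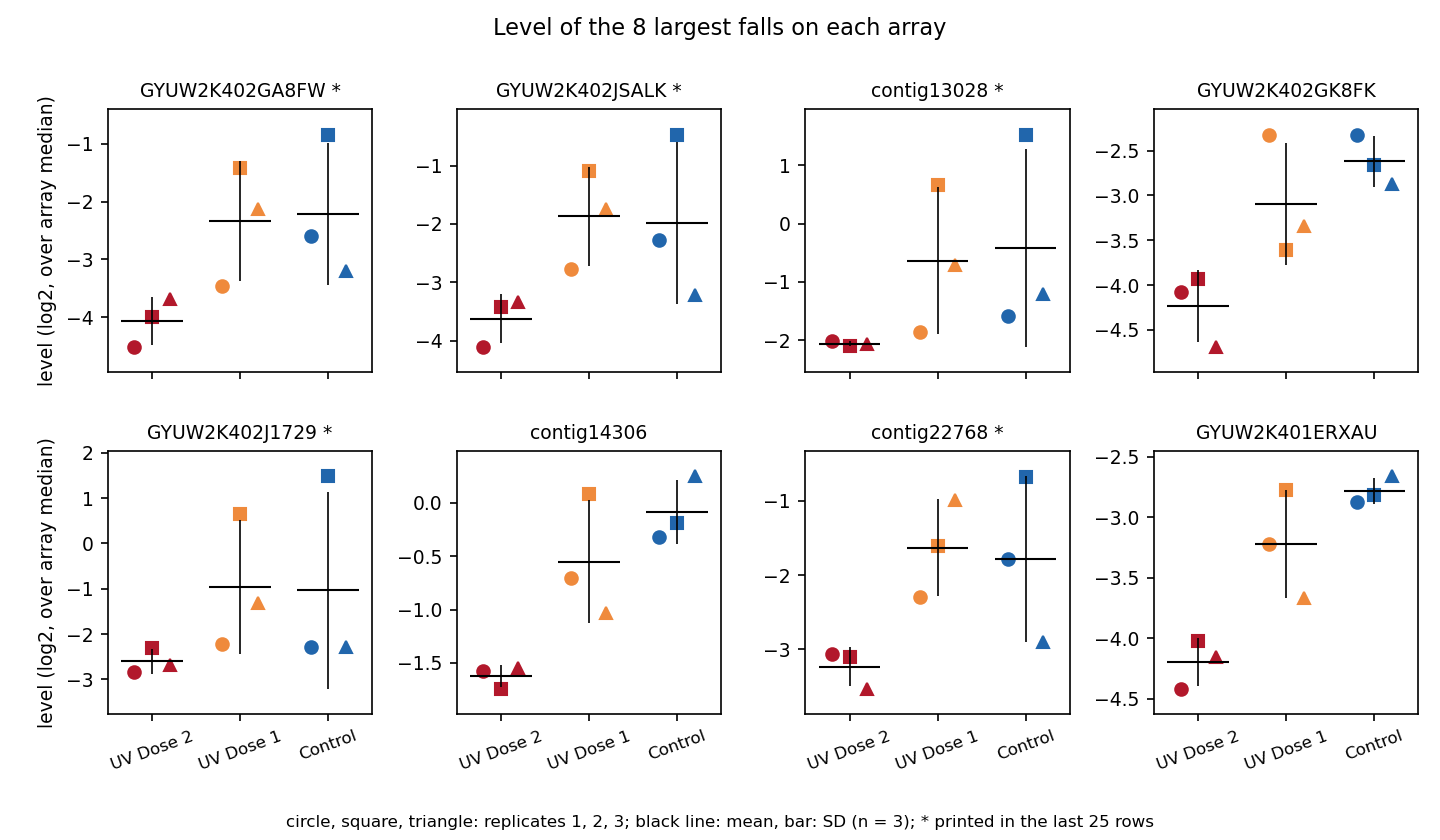
Level (log2, relative to the array median) of the 8 falls with the largest measured mean difference on each array, with UV Dose 2 in red, UV Dose 1 in orange and Control in blue; symbols give the replicate number, the horizontal line the mean and the bar the SD (n = 3). Asterisks mark 5 probes printed in the last 25 rows, in which Control replicate 2 (blue square) is the highest Control array, as in contig13028 with 1.52 against -1.58 and -1.20 on Control replicates 1 and 3.

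The other falls are given by their range. GYUW2K401BBEJF and GYUW2K402F4UGF had only a bound at UV Dose 2, with bounded ratios of Control to UV Dose 2 of 1.49 and 1.29. They were well above background on 1 and 2 of the 3 Control arrays. contig11727 was well above background on none of the UV Dose 2 and Control arrays, so no fold is given. The remaining 4, GYUW2K401DKO3A, contig02950, GYUW2K402IG85R and contig03901, had a mean UV Dose 2 minus Control between -1.19 and -1.03 and gaps between 0.01 and 0.31.

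The members nearest to each limit show how fine the choice was. At the change from Control, the rises contig02426 and contig26548 were just inside with 1.003 and 1.004, and GYUW2K401EF3XH and contig12823 just outside with 0.994 and 0.992. The falls GYUW2K402I7KGC and contig03901 were just inside with -1.001 and -1.03, and GYUW2K401A5GGA and GYUW2K401CTGUT just outside with -0.994 and -0.975. GYUW2K401A5GGA had a gap of 0.58 below the other 6 arrays, wider than all but 1 of the falls that met the rule.

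At the UV Dose 1 limit, the rises contig24712 and contig03299 were just inside with 0.492 each, and contig26596 and contig20690 just outside with 0.503 and 0.505. The falls contig11451 and GYUW2K402GK8FK were just inside with -0.489 and -0.471, and GYUW2K402GEUKL and GYUW2K401C5WER just outside with 0.540 and 0.611. At the separation, the rises contig13992 and contig09771 had gaps of 0.015 each, and contig17657 and contig00985 overlapped by 0.01 and 0.02. The falls GYUW2K402IG85R and GYUW2K402J1729 had gaps of 0.01, and GYUW2K401BTN14 and contig22315 overlapped by about 0.01 or less. All these distances at the separation are smaller than the median UV Dose 2 SD of 0.25 over all probes.

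The model fitted across all probes (limma, all 9 arrays, adjusted p under 0.05 by Benjamini-Hochberg) called 1193 of 27880 probes (4.28%) for UV Dose 2 against Control, with 719 higher and 474 lower. The split depended on the scaling, with 488 higher and 907 lower after SVCD normalization, 529 and 592 after scaling to the 75th percentile, 581 and 658 after Quantile normalization, 282 and 727 with no normalization between arrays, and 758 and 777 with another background correction. Among the members, 34 of the 57 rises (59.6%) were called, where 2.58% of all probes were called higher, and 6 of the 19 falls (31.6%), where 1.7% of all probes were called lower. With the replicate number as a block, 10 of the 19 falls were called. The rule used this contrast, so nothing is read from these shares. The 6 called falls were GYUW2K402GK8FK, contig14306, GYUW2K401ERXAU, contig11828, contig11451 and contig03901, and none of the 9 falls in the last rows was among them. In GYUW2K402GK8FK and GYUW2K401ERXAU no UV Dose 2 array was well above background, so their UV Dose 2 levels are only bounds. Leaving out UV Dose 2 replicate 3 left 7 of the 57 rises called, and leaving out UV Dose 2 replicate 1 left 1 of the 19 falls.

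For UV Dose 1 against Control, limma called 979 of 27880 probes (3.51%), 1.34% higher and 2.17% lower, and none of the members. An unadjusted p under 0.05 was found in 5 rises, where 10.2% of all probes were higher at that mark, and in 1 fall, where 8.6% were lower. For UV Dose 2 against UV Dose 1, the comparison that asks directly whether the doses differed, limma called none of the 27880 probes (0%), and the smallest adjusted p was 0.183. Without adjustment, 927 probes (3.32%) had a p under 0.05 in limma, while normexp background correction gave 8 calls and the methods' t-test none. Of the members, 49 rises and 15 falls were below 0.05 without adjustment, where 1.98% of all probes were higher and 1.35% lower. The rule had set the UV Dose 2 arrays beyond every UV Dose 1 array and limited the UV Dose 1 change. Nothing is therefore read from these unadjusted counts, nor from the lack of members called for UV Dose 1 against Control. With none of the 27880 probes called, no difference between the doses was called for any member, and the words UV Dose 2 only stand for the limits of the rule. The mean UV Dose 2 minus UV Dose 1 was between 0.56 and 2.06 in the rises, with a median of 0.95, and between -1.75 and -0.71 in the falls, with a median of -1.02.

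Within slide 4, UV Dose 2 could be set against UV Dose 1 replicate 1 alone. The rises were higher than it by 0.20 to 2.79 with a median of 0.90, and higher than the mean of UV Dose 1 replicates 2 and 3, on slide 2, by 0.55 to 2.09 with a median of 0.95. The falls were lower than UV Dose 1 replicate 1 with differences between -1.91 and -0.19 and a median of -0.81, bounded levels included, and lower than the mean of replicates 2 and 3 with a median of -1.14. Within the slide, a difference of at least 1 was reached in 23 of the 57 rises and 4 of the 19 falls, and against the UV Dose 1 arrays of the other slide in 26 and 12. The medians of the rises were close on both slides, while that of the falls was smaller on the shared slide. Over all 27935 probes the medians were 0.08 on the same slide and 0.08 against the other slide.

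**Figure D5:**
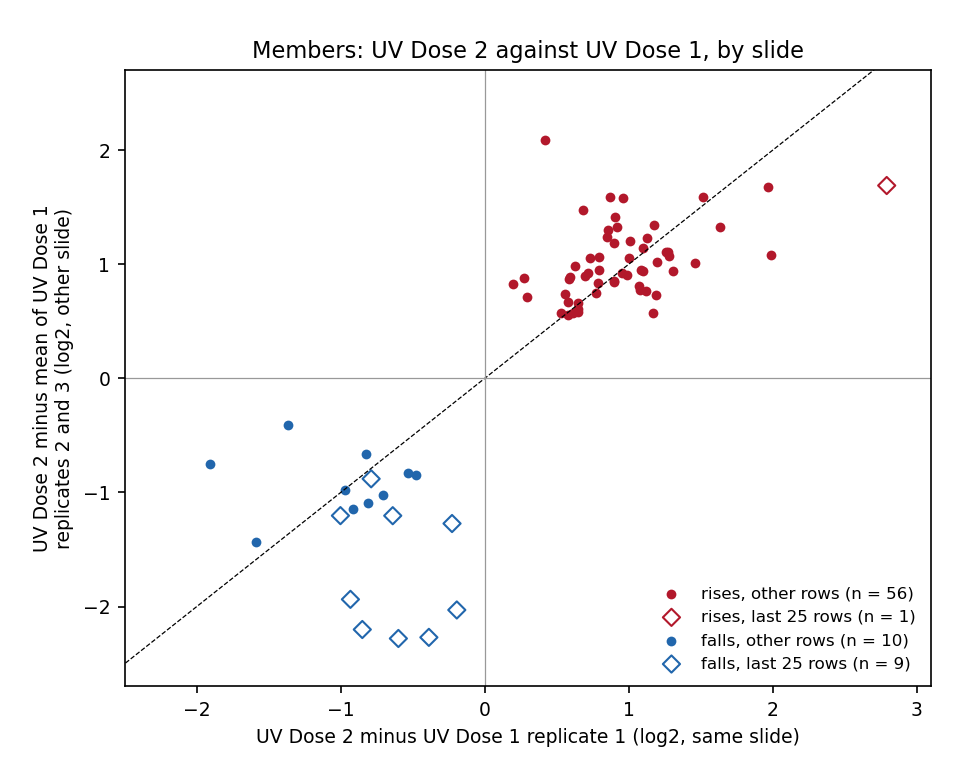
Mean of the 3 UV Dose 2 arrays minus UV Dose 1 replicate 1, on the same slide (horizontal axis, log2), against the same mean minus the mean of UV Dose 1 replicates 2 and 3, on slide 2 (vertical axis, log2), for each rise (red) and fall (blue); diamonds are members printed in the last 25 rows and the dashed line marks equal values. The falls of the last rows reach only from -1.003 to -0.19 on the horizontal axis, and all 9 lie below the dashed line.

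By single members, GYUW2K402GPPPY was 2.79 above UV Dose 1 replicate 1 and contig11596 1.97 above it, whereas contig02426 was 0.20 above it. Of the falls that were well above background on all 3 UV Dose 2 arrays, contig14306 differed from it by -0.91 and contig13028 by -0.19. With the slide as a fixed term in the model, UV Dose 2 is linked to Control through UV Dose 1. Control replicates 1 and 3 were alone on their slides, so Control replicate 2 was the only Control array that entered. It was the high Control array in dim probes of the last rows. UV Dose 2 minus Control then kept its direction at a size of at least 1 in 38 of the 57 rises. The same held for 17 of the 19 falls. Part of UV Dose 2 minus Control here is UV Dose 2 minus UV Dose 1 replicate 1, whose sign the rule had set. The direction is thus no sign of stability. No member was called in that fit, nor was any other probe for UV Dose 2 against Control, with 2298 at an unadjusted p under 0.05, and the methods' t-test without the slide called 142.

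Few members met the rule whichever array was left out. Leaving out each of the 9 arrays in turn, 9 rises met it every time: GYUW2K401AWM6X, GYUW2K402G0667, GYUW2K402JXDZX, contig03471, contig11596, contig12723, contig14889, contig16684 and contig19201. None of the 19 falls did. With normexp background correction 17 probes met the rule as rises, 8 of them among the 57, and 1 as a fall, which was not among the 19. The members listed here then had a median UV Dose 2 minus Control of 0.58 for the rises and -0.12 for the falls. That correction added an offset of 50, while the falls had mean processed signals between 4.14 and 40.3. Such an offset draws log2 differences of dim probes toward 0, so nothing is read from it about the falls.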

How the data were processed

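RNA of 9 pools of worms, 3 per group, was measured on 1-colour custom Agilent arrays with 45167 spots, of which 1417 were controls. The authors labelled the RNA with Cy3 and read the arrays with Agilent Feature Extraction 10.7.3.1, and the deposited scanner files hold intensity values, of which the background-corrected processed signal was used. The deposited table of the series holds the same intensity values to within 0.497% and served as an alternative. No depth exists for arrays, and the 3 arrays per group limit the precision.

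Gene probes with a positive and significant signal on all 9 arrays were kept, the log2 signal was centred on each array's median, and group means were fitted over all 9 arrays with limma 3.58.1 in R 4.3.3 (two-sided, Benjamini-Hochberg adjustment within a comparison, threshold 0.05). The fit left out 55 probes with an outlier flag. The script was tested on simulated data. Slides were numbered in the order of their arrays. A bound on a fold is set where a group's arrays are not well above background, as described with the falls.

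For rises and falls separately, the text names the 8 largest changes, the 4 widest gaps, the 3 brightest, the 2 just inside and the 2 just outside each limit, and the 3 probes most like the leading member, and others only where said. The members and lists were chosen with earlier results of these data known. Lists of UV response genes and of cell type markers could not be applied to probes without gene names. Alternatives were SVCD normalization (the study's method, 1% trimmed, Kolmogorov-Smirnov alpha 0.001), Quantile normalization, scaling to the 75th percentile, no normalization, normexp background correction with an offset of 50, the deposited table, other filters and limits, slide and replicate blocks, the methods' t-test, fits to the 6 arrays compared, and leaving out each array. The SVCD steps were written anew from the study's description, not with the authors' own program, and were run on these 9 arrays alone. Keeping the outlier flags and leaving out the last 25 printed rows were chosen after seeing the data. Same-numbered arrays correlated in their deviations from the group means by 0.56, 0.28 and 0.29 between UV Dose 2 and Control, by 0.21, 0.49 and 0.12 between UV Dose 1 and Control, and by 0.09, 0.19 and 0.03 between UV Dose 2 and UV Dose 1. Every same-numbered pair thus passed a mark of 0.1 in both comparisons with Control, and not between the doses. The value of 0.49 belongs to 2 arrays of slide 2. Differently numbered pairs passed the mark too, with 0.34 for UV Dose 1 replicate 1 and Control replicate 3. UV Dose 2 replicate 2 with Control replicate 3 had 0.18, and UV Dose 2 replicate 3 with Control replicate 2 had 0.15. The other differently numbered pairs with Control lay between -0.45 and 0.09. These values do not show that the numbers pair the arrays, and the labels do not state what a number marks. The replicate block was fitted over all 9 arrays.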

Additional observations from a re-analysis of the deposited data

Results flagged for a closer look

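Outside the probes that passed the filter, 6 gene probes were well above background on all 3 UV Dose 2 arrays and on none of the other 6, which singled them out because the rule could not reach them. The same count was 8 for UV Dose 1 and 29 for Control, so such probes were no more frequent for UV Dose 2. These counts were taken over 43674 of the 43750 gene probes. GYUW2K402F37NF had levels of 2.35, 1.69 and -2.89 on the UV Dose 2 arrays, and the mean of these was at least 9.85-fold above the other 6 arrays. UV Dose 2 replicate 3 was far below its fellows and level with UV Dose 1 replicate 1 at -2.83. GYUW2K401BQ470 had -0.79, -0.92 and -2.65 on the UV Dose 2 arrays and was at least 2.85-fold above the other 6. The bounds of the other 4 probes, GYUW2K401CLZSU, contig17495, contig24445 and GYUW2K402I1F3H, were 1.67, 1.65, 1.22 and 1.19-fold. None of the 6 was a member.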

How the results depend on the processing

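No value here is a test of the members, whose number follows the choices of the rule. The 57 rises became 32 with scaling to the 75th percentile, 33 with no normalization, 17 with normexp, 27 among probes well above background on all 9 arrays, 118 with no filter on signal, 8 with a change of at least 1.5 and 20 with a UV Dose 1 limit of 0.25. Similar counts can hold other probes: SVCD normalization found 43 rises, 28 of them among the 57, and Quantile normalization 54 rises and 13 falls, of which 34 and 5 were among the members. SVCD shared 14 of the 19 falls, and normexp shared 8 rises and 0 falls. The offset of normexp limits its counts of falls, as said above. The 19 falls became 34 with SVCD, 35 at the 75th percentile, 50 with no normalization, 1 with normexp, 46 with no filter, 6 with a change of at least 1.5, 8 with a limit of 0.25 and 12 without the last 25 rows. Leaving out 1 array gave 46 (Control replicate 3) to 135 rises (UV Dose 2 replicate 2), while omitting UV Dose 2 replicate 1 gave 134 and omitting UV Dose 1 replicate 1 gave 93. It gave 13 (Control replicate 2) to 81 falls (UV Dose 2 replicate 1), while omitting Control replicate 3 gave 47, UV Dose 2 replicates 3 and 2 gave 40 and 39, and UV Dose 1 replicate 1 gave 35. Calls for UV Dose 2 against Control (1193) became 618 with no filter, 0 with slide as a fixed block, 483 with slide as a random block, 142 by the methods' t-test and 512 with only the 6 arrays compared, and 371 to 1110 without 1 array. The lowest came without UV Dose 2 replicate 3, and omitting UV Dose 2 replicate 2 or 1 left 461 or 666, UV Dose 1 replicate 3 left 665, and Control replicates 1, 2 and 3 left 767, 683 and 695. Calls for UV Dose 2 against UV Dose 1 (0) became 8 with normexp and 2 with the fixed slide block, and 0 to 1 without 1 array (1 without UV Dose 1 replicate 2). Calls for UV Dose 1 against Control (979) became 9 with the fixed slide block, 1 by the t-test and 305 with 6 arrays, and 319 to 772 without 1 array. Rises called (34) became 12 with no normalization, 6 with no filter, 0 with the fixed slide block, 14 with the random slide block, 1 by the t-test and 12 with 6 arrays, and 7 to 29 without 1 array, with 7, 10 and 16 without UV Dose 2 replicates 3, 2 and 1. Falls called (6) became 0 with normexp, 2 with no filter, 0 with the fixed slide block, 1 with the random slide block and 0 by the t-test, and 1 to 5 without 1 array. Where a fit without 1 array left 2 in a group, that group shared the spread of the others. With the fixed slide block, Control replicate 2 was the only Control array behind the comparisons with Control. With the replicate number as a block, the calls were 1612, 0 and 1395 in the 3 comparisons, with 37 rises and 10 falls called for UV Dose 2 against Control, and only the count of falls moved by over 1.5 times. The causes of these differences were not tested. In 8 of the 19 falls the UV Dose 2 level was only a bound.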
